A study of Mus musculus with 12 samples.

Results

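Extracellular protease genes and the genes of their inhibitors were examined in mouse tibialis anterior (TA) muscle, the large dorsiflexor of the lower leg, after forced expression of the human long noncoding RNA FRAIL1. The set held every gene of the counts table whose mouse symbol began with Mmp (matrix metalloproteinase), Timp (tissue inhibitor of metalloproteinases), Adam (a disintegrin and metalloproteinase) or Adamts (the same with thrombospondin motifs) followed by a digit, or with Adamtsl (ADAMTS-like). By this rule 85 of the 27179 listed genes were members, namely 23 MMP, 4 TIMP, 34 ADAM, 19 ADAMTS and 5 ADAMTSL genes. Male wild-type C57BL/6N mice, obtained at 6 to 8 weeks of age and used within 2 weeks, received 10 μg of plasmid per TA by electroporation, and muscles were taken 7 days later. The 6 muscles called FRAIL1 carried a pcDNA3.1(+) plasmid with full-length FRAIL1, and the 6 called Control carried the same plasmid without an insert in the opposite leg. All 12 muscles therefore shared the injection, the hyaluronidase pretreatment and the electric pulses. The plasmid's CMV promoter is not restricted to a cell type, FRAIL1 has no rodent counterpart, and its own level was not analysed here because the table lists mouse genes. Poly(A) RNA of the whole muscle was sequenced, so more cells of a type and more RNA per cell cannot be told apart.

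MMPs, ADAMs and ADAMTS enzymes are zinc proteases that cut collagens, proteoglycans and cell-surface proteins. Most are made as inactive precursors and are held in check by TIMPs, small secreted proteins that block the active site. In skeletal muscle the connective tissue around the fibers, the fibroblasts in it, macrophages and regenerating fibers are known sources of these genes, and matrix turnover by them accompanies injury, repair and atrophy. TIMP2 has a double role, since together with the membrane protease MMP14 it forms the complex in which the MMP2 precursor is activated.

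Total counts were 45018389 to 59309210 per Control muscle and 44848322 to 60527385 per FRAIL1 muscle. Levels are given as CPM, each gene's share of the library's counts scaled to a common library size, and levels of different genes are compared only as CPM per kilobase (kb) of exon. A gene was called where the adjusted p of edgeR's quasi-likelihood test over 15502 tested genes was under 0.05. FRAIL1 muscle 5 stood apart, with the most extreme position on the first principal component of all genes (59.5, against -5.92 to 25.8 in the other FRAIL1 muscles and -25.9 to -11.0 in Control) and a scaling factor of 1.19 against 0.965 to 1.07. Results that rest on it are therefore also given without it.

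Of the 85 members, 54 had enough counts to be tested. Of these, 8 rose in FRAIL1 muscles (Adam12, Adamts17, Mmp3, Mmp14, Adamts20, Timp1, Adamts2 and Timp2) and 2 fell (Adamts1 and Timp3). The 8 are 14.8% of the tested members, where 4.43% of all tested genes were called higher, and the 2 are 3.70%, where 1.85% of all tested genes were called lower. Fold changes were above 0 on the log2 scale for 40 of the 54, with a median of 0.32, while the median over all tested genes was 0.0096. In 4 members (Adam12, Mmp3, Mmp14 and Adamts2) the lowest FRAIL1 muscle exceeded the highest Control muscle, which is 7.41% of those tested and compares with 3.12% of all genes. In 1 member, Adamts1, every FRAIL1 muscle was below every Control muscle, which is 1.85% of those tested and compares with 1.77% of all genes. At an unadjusted p under 0.05 there were 23 members, 42.6% of those tested, where 27.7% of all tested genes lay under it. Without FRAIL1 muscle 5, 9 members were called higher (16.7%, where 3.69% of all genes were) and 2 lower (3.70%, where 2.52% of all genes were), and the median log2 fold change of the tested members was 0.19. The counts moved more without other muscles. Leaving out Control muscle 1, 2, 3, 4, 5 or 6 left 3, 3, 1, 4, 2 and 2 members called higher, leaving out FRAIL1 muscle 1 or 4 left 2 and 3, and leaving out FRAIL1 muscle 3 gave 14, while the share of all genes called higher ran from 2.01% without FRAIL1 muscle 1 to 7.87% without FRAIL1 muscle 3. Members called lower numbered 0 without FRAIL1 muscle 1 or 4, where 0.32% and 0.493% of all genes were called lower. They numbered 1 without any Control muscle other than 5, where the share of all genes ran from 0.423% to 0.792%.

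**Figure D1:**
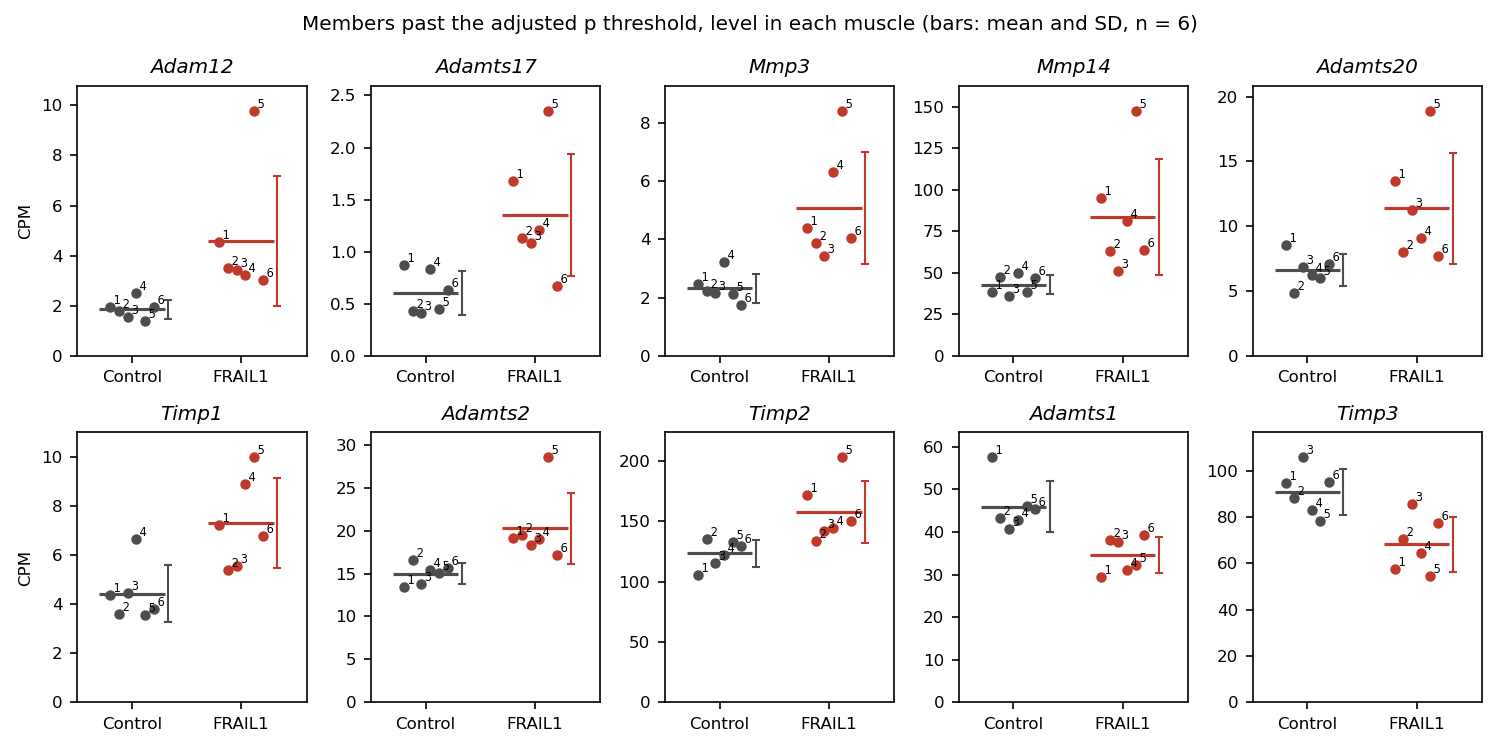
Level in CPM (y axis, from 0) of the 10 called members in each of the 6 Control and 6 FRAIL1 muscles (points, numbered by muscle), with the mean (line) and SD (bar). FRAIL1 muscle 5 was the highest point in all 8 genes called higher, and the groups did not overlap for Adam12, Mmp3, Mmp14, Adamts2 and Adamts1.

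Upstream sequences are shown for Mmp13 and for some of the called MMP, TIMP and ADAMTS genes. The sequences show how differently built the starts of genes are that were called alike. They are the 250 bases before the RefSeq transcription start (build GRCm38.p6), written 5′ to 3′ on the gene's strand, with capitals at matches to the AP-1 letters TGANTCA, the TATA box TATAAA and the GC box GGGCGG on either strand. Of the 85 members, 54 had at least 1 such window in the RefSeq table used. Mmp3 (chr9:7445572-7445821, + strand) and Mmp13 (chr9:7272264-7272513, + strand) each held 1 AP-1 match, 46 and 35 bases before the start, and no GC box. Each also held 1 TATA match, 7 bases before the annotated start in Mmp3 and 16 in Mmp13.
Mmp3: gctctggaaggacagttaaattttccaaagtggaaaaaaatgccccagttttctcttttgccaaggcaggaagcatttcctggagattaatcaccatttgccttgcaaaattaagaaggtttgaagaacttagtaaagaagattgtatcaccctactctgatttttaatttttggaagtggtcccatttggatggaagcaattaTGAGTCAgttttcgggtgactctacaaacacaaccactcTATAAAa
Mmp13: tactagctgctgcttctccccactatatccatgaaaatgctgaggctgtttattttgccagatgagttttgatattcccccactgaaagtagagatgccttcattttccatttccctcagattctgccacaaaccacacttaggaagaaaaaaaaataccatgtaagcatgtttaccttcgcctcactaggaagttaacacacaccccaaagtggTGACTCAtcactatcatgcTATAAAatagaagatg

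Both belong to a run of 10 MMP genes on chromosome 9 between 7272514 and 7699585, a span of 427 kb in mm10, of which Mmp13, Mmp12, Mmp3 and Mmp27 had enough counts to be tested. Windows of these 10 genes held the AP-1 letters in 8 of 12 cases (66.7%) and the TATA box in 7 (58.3%), where 6.75% and 12.4% of all 32851 windows held them. None of the 12 held a GC box, which 32.7% of all windows did. The AP-1 letters were in 0 of 9 windows of the other MMP genes, while 6 of those 9 held a GC box. Mmp1a, Mmp1b and Mmp20, with 2 counts or fewer in all, had both an AP-1 and a TATA match, and Mmp27, which was tested, had neither. A match describes these letters only and is not a measured binding site.

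Mmp14 (chr14:54431348-54431597, + strand), Timp1 (chrX:20869916-20870165, + strand) and Timp2 (chr11:118355412-118355661, - strand) also rose and held neither AP-1 letters nor a TATA box in these 250 bases. Mmp14 had 2 GC boxes, and Timp1 and Timp2 had 1 each.
Mmp14: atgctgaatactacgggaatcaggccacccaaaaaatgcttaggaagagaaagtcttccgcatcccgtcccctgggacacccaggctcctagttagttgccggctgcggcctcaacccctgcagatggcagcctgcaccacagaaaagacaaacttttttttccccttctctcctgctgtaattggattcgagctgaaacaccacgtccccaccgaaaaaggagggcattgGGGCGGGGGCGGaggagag
Timp1: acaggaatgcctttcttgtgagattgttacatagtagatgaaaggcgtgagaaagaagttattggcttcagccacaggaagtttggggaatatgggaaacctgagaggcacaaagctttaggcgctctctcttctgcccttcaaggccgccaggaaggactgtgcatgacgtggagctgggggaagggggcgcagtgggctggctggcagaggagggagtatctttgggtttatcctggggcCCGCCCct
Timp2: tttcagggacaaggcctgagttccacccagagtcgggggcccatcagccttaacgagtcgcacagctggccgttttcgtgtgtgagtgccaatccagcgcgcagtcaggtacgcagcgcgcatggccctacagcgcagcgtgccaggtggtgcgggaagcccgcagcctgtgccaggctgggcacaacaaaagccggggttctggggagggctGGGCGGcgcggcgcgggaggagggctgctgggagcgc

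Of the members that fell, Timp3 (chr10:86300162-86300411, + strand) and Adamts1 (chr16:85803114-85803363, - strand) were each 65.6% G and C, against a median of 52.4% over all windows, and held 1 and 3 GC boxes. Adamts1 also held a TATA box 32 bases before the start. Of the members called higher, 7 had a window each, from 37.6% G and C in Mmp3 to 78.0% in Adamts2. Their median was 55.2%, and 5 of these 7 windows held a GC box.
Timp3: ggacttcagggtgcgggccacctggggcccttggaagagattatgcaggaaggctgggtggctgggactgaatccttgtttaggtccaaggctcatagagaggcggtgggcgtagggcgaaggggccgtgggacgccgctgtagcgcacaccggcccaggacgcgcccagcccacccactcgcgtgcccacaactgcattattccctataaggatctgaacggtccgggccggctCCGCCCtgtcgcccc
Adamts1: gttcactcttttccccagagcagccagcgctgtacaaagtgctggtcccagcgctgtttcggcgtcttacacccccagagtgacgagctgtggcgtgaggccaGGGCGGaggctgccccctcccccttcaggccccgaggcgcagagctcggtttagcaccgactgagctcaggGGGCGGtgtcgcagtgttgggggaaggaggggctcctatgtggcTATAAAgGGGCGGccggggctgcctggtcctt

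Levels of the members spanned a wide range, and the called members lay at both ends of it. Per kb of exon, Timp2 stood highest in Control muscle at 31.7 ± 2.90 CPM per kb (SD, n = 6), followed by Mmp2 at 22.6 ± 4.77 and Adam9 at 20.8 ± 0.974. Timp3 (11.2 ± 1.21), Adamtsl5 (10.2 ± 0.888), Adamts1 (8.67 ± 1.13), Mmp15 (7.59 ± 0.422) and Mmp14 (7.22 ± 0.977) came next on the same scale, and Mmp15 and Mmp14 differed by less than the SD of either. Adamts8, Adamtsl4 (5.04 ± 0.963) and Timp1 (4.97 ± 1.31) followed, the last pair also within their SDs. In FRAIL1 muscle the level of Mmp14 was 14.0 ± 5.87 CPM per kb, above Adamtsl5 at 9.78 ± 1.13 and Timp3 at 8.39 ± 1.46, both of which it had been below in Control.

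Among the secreted MMPs, Mmp3 was the clearest change. Mmp3 encodes stromelysin-1, which cuts proteoglycans and fibronectin and activates other MMP precursors. Its level was 1.75 to 3.23 CPM in Control muscles (median 2.20) and 3.43 to 8.43 in FRAIL1 muscles (median 4.22). The lowest FRAIL1 muscle was thus above the highest Control muscle. The log2 fold change was 1.12 ± 0.22 (SE, n = 6 per group; adjusted p = 0.0124), a 2.18-fold rise, and 0.92 without FRAIL1 muscle 5 (adjusted p = 0.00687). Mmp11 and Mmp12, the other tested members of this class, were not called. Mmp11, stromelysin-3, was 1.88 to 3.27 CPM in Control and 2.79 to 5.35 in FRAIL1 muscles (adjusted p = 0.0767). Of the remainder of the class, Mmp7 had 4 counts and Mmp10 had 71 counts over all 12 muscles, and neither was tested.

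Mmp12, the metalloelastase that macrophages make, was uneven within both groups. It stood at 20.8 and 16.4 CPM in FRAIL1 muscles 1 and 4 and at 0.627 to 2.36 in the other 4. In Control it was 7.30 CPM in muscle 1 and 0.579 to 2.699 elsewhere. Its log2 fold change of 1.44 ± 0.999 (SE) was not called (adjusted p = 0.376). Of 8 macrophage markers, Cd68, Adgre1, Itgam, Csf1r, C1qa and C1qb were also higher in FRAIL1 muscles 1 and 4 than in any Control muscle, with Cd68 at 63.5 and 44.9 CPM there against 9.37 to 18.6 in Control. Cd163 and Mrc1 did not exceed the highest Control muscle in either. In FRAIL1 muscle 5, where Mmp12 was 0.897 CPM, the same markers other than Itgam were above Control as well, with C1qa at 120 CPM and Csf1r at 56.7. In FRAIL1 muscle 6, where Mmp12 was 0.627 CPM, Adgre1, Csf1r, C1qa and C1qb were above Control too, while Cd68 and Itgam were not. DESeq2 gave adjusted p of 0.00657 to 0.0376 for Cd68, Adgre1, Csf1r, C1qa and C1qb. It gave 0.374 to 0.415 for Cd163, Mrc1 and Itgam. All 8 markers were detected and tested, and none was called without a block, while 4 were with the replicate number as a block. Their summed level was 132 to 207 CPM in Control and 170 to 370 in FRAIL1 muscles, with the 2 highest sums, 366 and 370, in muscles 1 and 4. Their part in the level of Mmp12 was not tested.

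Mmp13 was the only collagenase with enough counts. This enzyme makes the initial cut in fibrillar collagen in mice. It ranged from 0.875 to 8.99 CPM in Control (median 3.11) and from 4.28 to 26.4 CPM in FRAIL1 muscles (median 14.4). The groups overlapped, with 4 of 6 FRAIL1 muscles above the highest Control muscle. Its log2 fold change of 1.81 ± 0.65 (SE) was the largest among the tested members, and the gene was not called (adjusted p = 0.104). DESeq2 put the adjusted p of Mmp13 at 0.0453. Mmp8, the collagenase that neutrophils store, reached at most 8 counts in a muscle. Mmp1a had 2 counts in all and Mmp1b none. Among 6 neutrophil markers 2 passed the filter, Ly6g and Retnlg were at 0 in several muscles, and the summed level was 2.11 to 8.22 CPM in Control and 3.51 to 9.30 in FRAIL1 muscles.

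The gelatinases, which degrade denatured collagen and basement membrane, did not pass the threshold. Mmp2 was 50.1 to 97.0 CPM in Control (median 75.5) and 94.3 to 174 CPM in FRAIL1 muscles (median 103). Only the highest Control muscle reached into the FRAIL1 range, and the log2 fold change was 0.57 ± 0.17 (SE; adjusted p = 0.0626). The highest value, 174 CPM, was that of FRAIL1 muscle 5, and the other 5 lay within 94.3 to 107. Without muscle 5 the log2 fold change of Mmp2 was 0.41 (adjusted p = 0.0899). DESeq2 put the adjusted p of Mmp2 at 0.012, and edgeR with the replicate number as a block put it at 0.0486. Mmp9 stood at 0.965 to 1.77 CPM in Control and 0.784 to 4.05 in FRAIL1 muscles, which gave 0.69 ± 0.33 on the log2 scale (adjusted p = 0.191), with FRAIL1 muscle 1 the highest.

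All 6 membrane-type MMPs were tested and Mmp14 alone was called. Mmp14 encodes MT1-MMP, a collagenase anchored in the cell membrane and the activator of the MMP2 precursor. Control muscles held 36.2 to 49.8 CPM (median 42.9) and FRAIL1 muscles 50.9 to 148 (median 72.6). No FRAIL1 muscle fell within the Control range, though muscle 3 at 50.9 lay just above its upper end. Mmp14 had a log2 fold change of 0.96 ± 0.23 (SE; adjusted p = 0.0326), a 1.95-fold rise, and of 0.72 without FRAIL1 muscle 5 (adjusted p = 0.0200). Mmp15, the closest relative of Mmp14 and similarly abundant in Control muscle, was 37.8 to 43.7 CPM in Control and 39.0 to 52.3 in FRAIL1 muscles (log2 fold change 0.12 ± 0.07, adjusted p = 0.244). Mmp16 was at 0.0470 to 0.417 CPM in Control and 0.0980 to 1.009 in FRAIL1 muscles, with a log2 fold change of 1.19 ± 0.50 (adjusted p = 0.141). Mmp17, Mmp24 and Mmp25 had log2 fold changes of -0.02, 0.36 and -0.34 and were not called.

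Among the remaining MMPs 4 of 6 were tested and none was called. Mmp23 and Mmp19 lay closest to the threshold, with log2 fold changes of 0.81 ± 0.23 (SE; adjusted p = 0.0504) and 0.70 ± 0.20 (adjusted p = 0.0525). In each, 5 of 6 FRAIL1 muscles were above the highest Control muscle. Mmp19 shares 28.3% of its exon bases with genes on the opposite strand, and because the strand setting of the counting is not given in the sources used here, reads of these genes cannot be told apart. Mmp28, epilysin, had the lowest log2 fold change of the tested members, -0.46 ± 0.28, with 1.24 to 2.94 CPM in Control and 0.822 to 2.57 in FRAIL1 muscles (adjusted p = 0.303). Mmp27 stood at 0.63 ± 0.34 (adjusted p = 0.234). Mmp20 and Mmp21 had 2 and 28 counts in all.

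**Figure D2:**
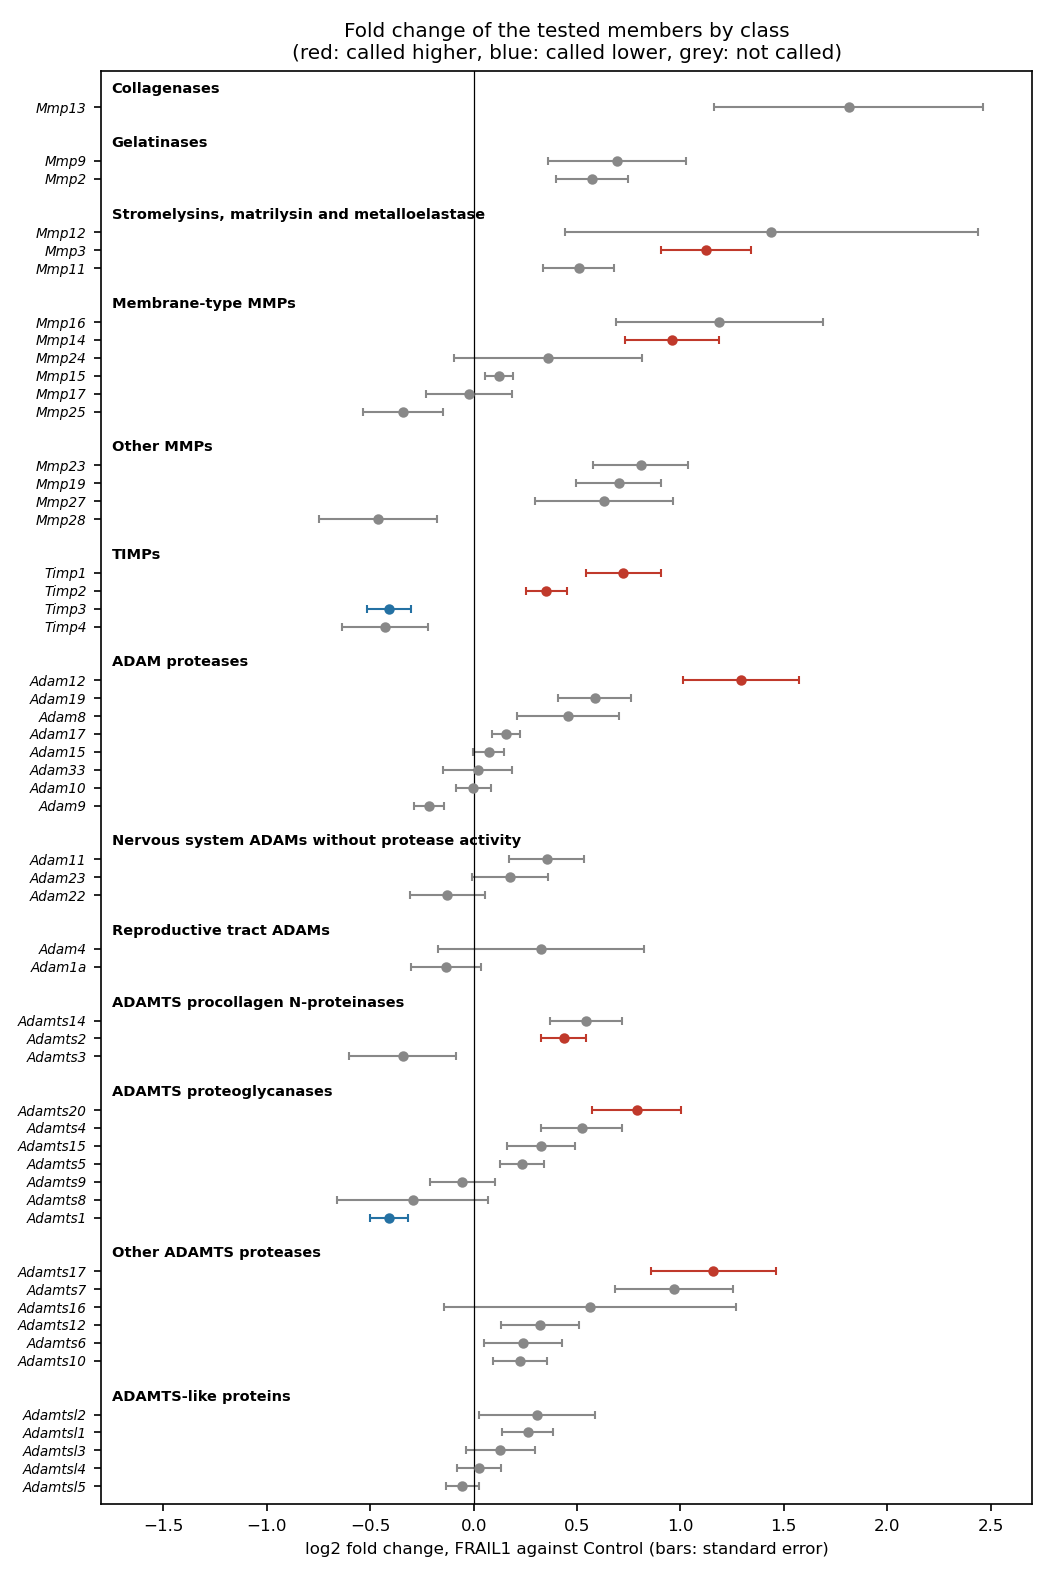
Log2 fold change of FRAIL1 against Control (x axis) with its standard error (bars) for the 54 tested members, grouped by class (rows). The 8 members called higher are red, the 2 called lower are blue and the other 44 are grey. Mmp13 and Mmp12 lie far to the right with wide bars, whereas Timp1 and Timp2 lie on the opposite side of 0 from Timp3 and Timp4.

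The TIMP genes split by direction. Timp1 and Timp2 rose, Timp3 fell, and Timp4 was not called. Timp1, the inducible member, was 3.57 to 6.66 CPM in Control (median 4.09) and 5.39 to 9.98 CPM in FRAIL1 muscles (median 6.999). The overlap came from Control muscle 4, at 6.66, since the other 5 Control muscles reached at most 4.47. For Timp1 the log2 fold change was 0.72 ± 0.18 (SE; adjusted p = 0.0339), a 1.65-fold rise. Timp2, broadly and steadily expressed in most tissues, went from 106 to 135 CPM in Control (median 126) to 134 to 203 in FRAIL1 muscles (median 147), with a log2 fold change of 0.35 ± 0.10 (adjusted p = 0.0465). Its groups met at FRAIL1 muscle 2 (134) and Control muscle 2 (135). Timp3 binds to the matrix and also inhibits ADAM17 and aggrecanases. It was 78.5 to 106 CPM in Control (median 91.4) and 54.6 to 85.6 CPM in FRAIL1 muscles (median 67.5), so that 5 of 6 FRAIL1 muscles lay below the lowest Control muscle. For Timp3 it was -0.41 ± 0.11 (adjusted p = 0.0369), or 0.752-fold. Timp4, known for its expression in heart and striated muscle, was 17.1 to 27.1 CPM in Control and 8.54 to 24.4 in FRAIL1 muscles, with 4 of 6 below the lowest Control muscle and a log2 fold change of -0.43 ± 0.21 (adjusted p = 0.203). Without FRAIL1 muscle 5 the adjusted p was 0.0474 for Timp1, 0.0439 for Timp2 and 0.0481 for Timp3.

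Summed per kb of exon, the TIMP level was 51.6 ± 2.55 CPM per kb (SD, n = 6) in Control and 59.9 ± 6.49 in FRAIL1 muscles. Timp2 made up 61.3% ± 3.34 of this sum in Control and 67.3% ± 3.88 in FRAIL1 muscles. The share of Timp1 was 9.67% ± 2.62 and 13.6% ± 2.47. Timp3 took 18.4% to 25.0% of the sum in Control muscles and 9.36% to 18.3% in FRAIL1 muscles, so that the ranges did not overlap but nearly touched. Timp4 had 7.34% ± 1.26 in Control and 4.85% ± 1.80 in FRAIL1 muscles. The genes Timp1, Timp3 and Timp4 lie within Syn1, Syn3 and Syn2 on the opposite strand, and 21.3% of the exon bases of Timp3 are shared with Syn3. If strand was not used, reads of Timp3 and Syn3 in these bases cannot be told apart. Whether such reads were counted or left out is not given in the sources used here.

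**Figure D3:**
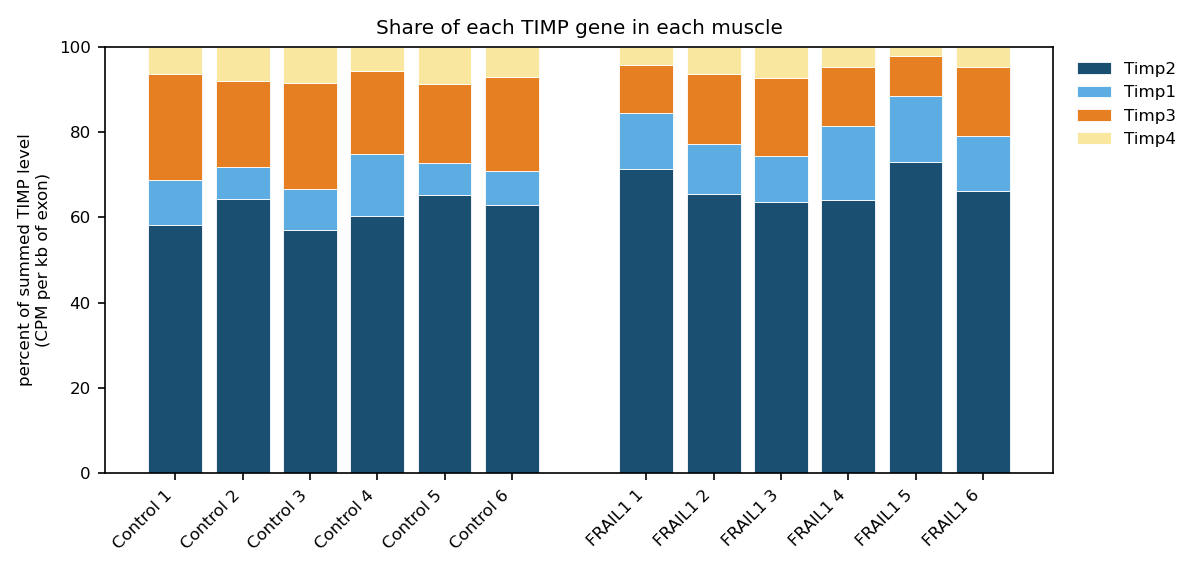
Share of each TIMP gene (colours) in the summed TIMP level, in percent of CPM per kb of exon (y axis), for each of the 12 muscles (bars). The orange Timp3 section is 18.4% to 25.0% in the Control muscles and 9.36% to 18.3% in the FRAIL1 muscles, smallest in FRAIL1 muscle 5.

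Of the 9 ADAM genes that encode active proteases, 8 were tested and Adam12 was called. Adam12, or meltrin alpha, is known from regenerating muscle and from mesenchymal cells of the muscle interstitium. It was 1.41 to 2.52 CPM in Control (median 1.88) and 3.02 to 9.79 in FRAIL1 muscles (median 3.48). The groups did not overlap, and FRAIL1 muscle 5 at 9.79 was well above the next muscle at 4.54. The log2 fold change was 1.29 ± 0.28 (SE; adjusted p = 0.0205), a 2.45-fold rise, and 0.92 without muscle 5 (adjusted p = 0.00371). Adam19, meltrin beta, the nearest relative of Adam12 and a sheddase of neuregulins, was 11.8 to 15.6 CPM in Control and 15.3 to 34.8 in FRAIL1 muscles, with FRAIL1 muscle 5 at 34.8 and the others at most 18.2. Its log2 fold change was 0.59 ± 0.18 (adjusted p = 0.0605), and without muscle 5 it was 0.36 with an adjusted p of 0.0161.

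The general sheddases did not pass the test. Adam10, whose product cleaves Notch receptors, was 17.0 to 24.3 CPM in Control and 19.9 to 24.0 in FRAIL1 muscles (log2 fold change -0.00075 ± 0.083, adjusted p = 0.997). Adam17, whose product releases TNF and ligands of the EGF receptor, was 28.6 to 34.5 CPM in Control and 30.8 to 38.1 in FRAIL1 muscles (0.15 ± 0.07, adjusted p = 0.152). Adam9, the most abundant ADAM per kb, was 80.9 to 91.0 CPM in Control and 59.6 to 83.8 in FRAIL1 muscles, where 5 of 6 lay below the lowest Control muscle (-0.22 ± 0.07, adjusted p = 0.0719). Adam8, a protease of leukocytes, was 15.5 and 13.8 CPM in FRAIL1 muscles 1 and 4, the muscles with the most Mmp12, and 4.85 to 8.92 in the other 4, with 5.32 to 8.40 in Control (adjusted p = 0.251). Adam15 and Adam33 had log2 fold changes of 0.07 and 0.02, and Adam28 had no count.

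Adam11, Adam22 and Adam23, whose proteins act as adhesion molecules and receptors in the nervous system, were between 1.87 and 7.21 CPM in every muscle and none was called. Of 22 ADAM genes of the testis and reproductive tract only Adam1a and Adam4 passed the filter, and neither was called. For Adam1a, 63.7% of exon bases are shared with other genes. Of all 85 members, 13 had no count in any muscle, among them Adam28, Mmp1b and 11 reproductive tract ADAMs. No count allows up to 3 counts in a library, or 0.0496 to 0.0669 CPM in the largest and smallest library, a limit that covers counting error only. The other 18 untested members reached at most 24 counts in a muscle.

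ADAMTS enzymes are secreted and act on the matrix. Among the procollagen N-proteinases, which trim the amino end of fibrillar procollagens, Adamts2 rose. It was 13.4 to 16.6 CPM in Control (median 15.2) and 17.1 to 28.6 in FRAIL1 muscles (median 19.1), without overlap. The log2 fold change was 0.44 ± 0.11 (SE; adjusted p = 0.0323), and 0.31 without muscle 5 (adjusted p = 0.0138). Adamts14 had a log2 fold change of 0.54 ± 0.17 (adjusted p = 0.0689). Adamts3 pointed the other way at -0.34 ± 0.26, with 0.570 to 2.03 CPM in Control and 0.586 to 1.29 in FRAIL1 muscles (adjusted p = 0.408).

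The proteoglycanases, which cut versican and aggrecan, held both a rise and a fall. Adamts1 was 40.7 to 57.6 CPM in Control (median 44.3) and 29.4 to 39.3 in FRAIL1 muscles (median 35.0), and every FRAIL1 muscle was below every Control muscle. Its log2 fold change was -0.41 ± 0.09 (SE; adjusted p = 0.0221), or 0.754-fold, and -0.39 without FRAIL1 muscle 5 (adjusted p = 0.0315). Adamts20, a versican-cutting relative of Adamts9, was 4.84 to 8.54 CPM in Control (median 6.56) and 7.68 to 18.9 in FRAIL1 muscles (median 10.2), with 4 of 6 above the highest Control muscle (0.79 ± 0.21, adjusted p = 0.0472, and 0.58 with an adjusted p of 0.0467 without FRAIL1 muscle 5). Adamts5, the main aggrecanase of mouse cartilage, was 16.3 to 24.8 CPM in Control and 19.7 to 30.0 in FRAIL1 muscles (0.24 ± 0.11, adjusted p = 0.164). Adamts4 stood at 2.37 to 4.21 CPM in Control and 3.33 to 7.51 in FRAIL1 muscles (0.52 ± 0.19, adjusted p = 0.103). Adamts15, Adamts9 and Adamts8 had log2 fold changes of 0.33, -0.05 and -0.29, with Adamts8 spread over 6.90 to 40.7 CPM in FRAIL1 muscles, and were not called.

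Of the other ADAMTS genes 6 of 9 were tested, all 6 had log2 fold changes above 0, and Adamts17 was called. Adamts17, an enzyme linked to fibrillin microfibrils, was 0.414 to 0.875 CPM in Control (median 0.541) and 0.666 to 2.35 in FRAIL1 muscles (median 1.18). Only FRAIL1 muscle 6, at 0.666, lay within the Control range. On the log2 scale the difference was 1.16 ± 0.30 (SE; adjusted p = 0.0369), and without FRAIL1 muscle 5 it was 0.93 with an adjusted p of 0.0614. Adamts7, which cuts COMP, was 2.28 to 3.93 CPM in Control and 3.37 to 12.2 in FRAIL1 muscles (0.97 ± 0.28, adjusted p = 0.0572), and without muscle 5, its highest, 0.58 with an adjusted p of 0.0326. Adamts13, the protease of von Willebrand factor made mainly in liver, had 10 counts over 3 muscles. All 5 ADAMTS-like genes, whose proteins lack the protease domain and bind microfibrils, were tested and none was called. Adamtsl2 was 0.538 to 1.601 CPM in Control and 0.860 to 2.10 in FRAIL1 muscles (0.30 ± 0.28, adjusted p = 0.507). The abundant Adamtsl4 and Adamtsl5 had log2 fold changes of 0.02 ± 0.11 and -0.05 ± 0.08.

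Members differed in which FRAIL1 muscle was highest. FRAIL1 muscle 5 was the highest of the 6 for 30 of the 54 tested members, against 27.5% of all tested genes. The ratio to the Control mean had a median over the tested members of 1.64 in muscle 5 and of 1.08 to 1.21 in the other FRAIL1 muscles, with 0.996 to 1.008 over all tested genes in each of the 6. The summed levels of fibroblast and of regenerating fiber markers were also highest in muscle 5, although Dcn, Pdgfrb, Pi16 and Myod1 of these lists peaked in other FRAIL1 muscles. Of 8 fibroblast markers, all detected and tested, none was called, and the summed level was 977 to 1847 CPM in Control, 1952 to 2390 in 5 FRAIL1 muscles and 4958 in muscle 5. Col1a1, a main chain of type I collagen, was 310 to 574 CPM in Control, 608 to 934 in 5 FRAIL1 muscles and 1968 in muscle 5 (log2 fold change 1.04 ± 0.29, adjusted p = 0.0522, and 0.0309 without muscle 5). Dcn, Pdgfrb and Pi16, of the same list, had log2 fold changes of 0.02, -0.10 and -0.14. Of 6 markers of satellite cells and regenerating fibers, Myog, Myh3 and Myh8 rose. Their list summed to 165 to 212 CPM in Control, 320 to 645 in 5 FRAIL1 muscles and 1530 in muscle 5. Myh3, the embryonic myosin heavy chain, had a log2 fold change of 2.16 ± 0.37 (adjusted p = 0.0124). The part of fibroblasts and regenerating fibers in the members' levels was not tested. Without muscle 5 Adam12, Mmp3, Mmp14, Adamts2, Adamts20, Timp1, Timp2, Timp3 and Adamts1 were still called, as given above.

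**Figure D4:**
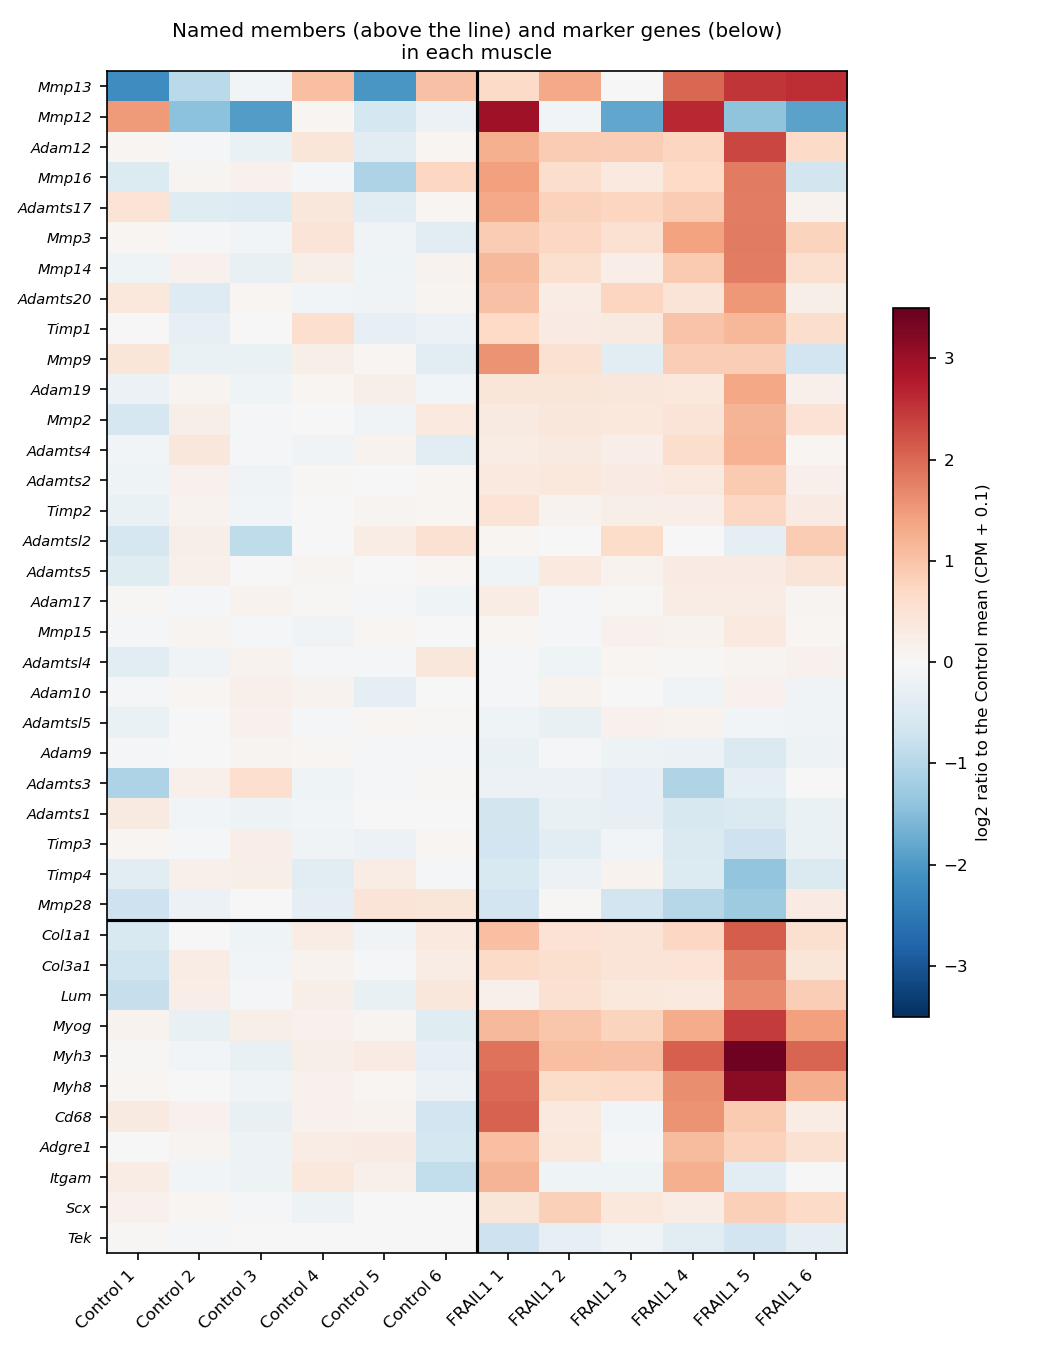
Log2 ratio of each muscle's level to the Control mean (colour, CPM with 0.1 added) for 28 named and tested members (rows above the line, ordered by fold change) and 11 marker genes (below) in the 12 muscles (columns). Red is higher and blue lower. FRAIL1 muscle 5 is the deepest red for Adam12, Mmp14 and Adam19 and for Col1a1, Myh3 and Myh8, and FRAIL1 muscles 1 and 4 are the deepest red for Mmp12 and for Cd68 and Itgam.

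Markers of tendon, endothelial and Schwann cells and of adult fibers were measured as well. The tendon transcription factor Scx rose (log2 fold change 0.59 ± 0.11, adjusted p = 0.0102), while Tnmd, Mkx and Fmod did not pass the test, and the 4 tendon markers summed to 44.2 to 109 CPM in Control and 54.1 to 143 in FRAIL1 muscles. Of 6 endothelial markers the angiopoietin receptor Tek fell (-0.41 ± 0.09, adjusted p = 0.0186), all 6 had log2 fold changes below 0, and the sum was 396 to 467 CPM in Control and 319 to 416 in FRAIL1 muscles. Adamts1 and Timp3, which fell, and Tek each had their 3 lowest values in FRAIL1 muscles 1, 4 and 5, and Tek was 18.9 to 28.5 CPM in FRAIL1 muscles against 29.7 to 32.0 in Control. The other endothelial markers shared this order in part or not at all. Kdr was lowest in FRAIL1 muscles 5 and 1 (64.21 and 64.35 CPM), and Tie1 in FRAIL1 muscles 1 and 4 (55.2 and 58.29 CPM). Pecam1, Cdh5 and Emcn were at their highest FRAIL1 level in muscle 5. Whether endothelial cells took part in the fall of Adamts1 and Timp3 was not tested. The 5 Schwann cell markers were all below 0 on the log2 scale and none was called, with sums of 59.2 to 113 CPM in Control and 44.2 to 78.1 in FRAIL1 muscles. Of 6 genes of adult fast fibers Ckm, the muscle creatine kinase, fell (-0.38 ± 0.11, adjusted p = 0.0482). All 6 were abundant in every library, with sums of 118000 to 140900 CPM in Control and 92100 to 124100 in FRAIL1 muscles.

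Regulators of these proteases outside the families were measured as a list of 21 genes, of which 20 were tested, 3 rose and none fell. Over all tested genes the shares called were 4.43% higher and 1.85% lower. Tspan17, a tetraspanin that guides ADAM10 to the cell surface, was 14.0 to 18.4 CPM in Control (median 15.8) and 19.7 to 23.4 in FRAIL1 muscles (median 21.6), without overlap. Tspan17 differed by 0.42 ± 0.08 on the log2 scale (SE; adjusted p = 0.00878). Lrp1, the endocytic receptor that clears MMPs, ADAMTS enzymes and TIMPs, was 100 to 124 CPM in Control and 112 to 180 in FRAIL1 muscles (0.40 ± 0.10, adjusted p = 0.0348). Tfpi2, a secreted serine protease inhibitor, was 0.386 to 0.714 CPM in Control and 0.671 to 1.39 in FRAIL1 muscles (0.90 ± 0.24, adjusted p = 0.0396). Reck and Furin, an inhibitor and an activator of MMPs, had log2 fold changes of 0.02 and 0.03. The plasminogen activator genes Plau and Plat stood at 0.27 and 0.30 and were not called. Without FRAIL1 muscle 5 only Tspan17 of the 3 was called (adjusted p = 0.00732, against 0.0544 for Lrp1 and 0.0656 for Tfpi2), and Serpine2, an inhibitor of serine proteases, was called lower (-0.27, adjusted p = 0.0325).

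Among 16 genes for substrates of ADAMTS and ADAM proteases 14 were tested, 1 rose and 1 fell. Of all tested genes 4.43% were called higher and 1.85% lower, so these counts are not read as a result about the list. Dll1, a Notch ligand that ADAM proteases shed, was 7.04 to 8.32 CPM in Control and 8.13 to 13.4 in FRAIL1 muscles (0.46 ± 0.11, adjusted p = 0.0286). Vwf, von Willebrand factor of the endothelium, was 31.9 to 38.7 CPM in Control and 24.6 to 32.3 in FRAIL1 muscles (-0.25 ± 0.07, adjusted p = 0.0481). Vcan, the proteoglycan versican, did not pass the test (0.64 ± 0.23, adjusted p = 0.0993), with FRAIL1 muscle 5 the highest at 19.4 CPM against at most 10.8 in the others. Fbn2, a microfibril protein, had no overlap between groups but was not called (1.34 ± 0.39, adjusted p = 0.0535). Without FRAIL1 muscle 5 the adjusted p was 0.0361 for Dll1 and 0.0518 for Vwf.

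Many of these calls lay close to the threshold and were lost when a muscle was left out, though none without FRAIL1 muscle 2 or 3. Fits without a Control muscle also called fewer of all genes higher, 2.11% to 2.64% in place of 4.43%. A lost call is therefore not read as dependence on that muscle alone. Mmp3 stayed under the threshold whichever muscle was left out, as did Tspan17, Scx, Tek, Myog and Myh3. The call of Adam12 was lost without Control muscle 3 (adjusted p = 0.0508), and that of Adamts1 without FRAIL1 muscle 1 or 4 (0.0515 to 0.0547). Myh8 lost its call without Control muscle 2 or 3 (0.0502 to 0.0519). Adamts2 lost it without Control muscle 1, 3, 4, 5 or 6 or FRAIL1 muscle 1 (0.0522 to 0.0726). Timp3 lost it without any Control muscle other than 5 or without FRAIL1 muscle 1 or 4 (0.0521 to 0.0817). For Mmp14 (0.0508 to 0.0700) and Adamts20 (0.0590 to 0.0947) the call was lost without any Control muscle or without FRAIL1 muscle 1 or 4. For Timp1 (0.0518 to 0.0733) it was lost without any Control muscle other than 4 or without FRAIL1 muscle 1, 4 or 6, and for Timp2 (0.0599 to 0.0977) without any Control muscle or without FRAIL1 muscle 1, 4 or 6. For Adamts17 (0.0589 to 0.0813) it was lost without Control muscle 2, 3, 5 or 6 or FRAIL1 muscle 1, 4 or 5. Of the other lists, Dll1 lost its call without any Control muscle other than 3 or without FRAIL1 muscle 6 (0.0513 to 0.0663). Lrp1 lost it without any Control muscle other than 2 or without FRAIL1 muscle 1, 4 or 5 (0.0544 to 0.0811), and Ckm without any Control muscle or without FRAIL1 muscle 1, 4 or 6 (0.0628 to 0.0912). Tfpi2 (0.0562 to 0.0882) and Vwf (0.0503 to 0.0931) lost it in all fits other than those without FRAIL1 muscle 2 or 3. With no filter on low counts, which raised the number of genes tested, Mmp14 (adjusted p = 0.0529) and Adamts20 (0.0670) were not called. The direction of all 10 called members was the same in all 12 fits.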

How the data were processed

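RNA of 12 tibialis anterior muscles, 6 Control and 6 FRAIL1, was sequenced as paired-end reads after poly(A) selection. The authors deposited raw gene counts, which per the submitters' processing notes came from Trimmomatic, STAR 2.7.8a and featureCounts 2.0.1 on mm10. The annotation release and strand setting are not given in the sources used here. Gene IDs were matched to RefSeq symbols (25275 of 27179, the rest holding 0.2796% of counts). Genes were filtered with filterByExpr (15502 kept), scaled by TMM and tested in edgeR 4.0.16 (R 4.3.3) by quasi-likelihood, robust setting, with p-values adjusted by Benjamini-Hochberg and a threshold of 0.05. Each SE is the log2 fold change divided by the square root of F. On simulated data, 88% of 200 changed genes among 15502 were recovered, with 7 false calls. Each planted change was larger than those of most called members, and no outlying muscle was simulated. The share recovered therefore does not apply to changes as small as theirs. Totals of 44848322 to 60527385 counts per muscle set a floor of 3 counts at 0.0496 to 0.0669 CPM. Named genes were the called members, the best known members of each class, the 10 with the highest level per exon length, the 5 highest and 5 lowest log2 fold changes, and genes of the other lists that passed the test. Further members and uncalled genes of the other lists were named after their values were seen. Members, lists and tests were chosen with earlier results of these data known. The study design places both plasmids in opposite legs, and the labels do not say which muscles share a mouse, so p-values measure the spread between these muscles. Alternatives were DESeq2 1.42.0, limma 3.58.1 voom, other scalings and filters, a replicate block and leaving out each muscle. The transfected FRAIL1 transcript was not analysed here.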

Additional observations from a re-analysis of the deposited data

Results flagged for a closer look

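In 8 of 56 groups of 6 muscles, 1 muscle lay farther from its neighbour than Dixon's 95% limit allows, where chance flags about 1 in 20 groups. In 4 of these FRAIL1 muscle 5 was the highest. It held 174 CPM of Mmp2 (next 107), 9.79 CPM of Adam12 (next 4.54), 34.8 CPM of Adam19 (next 18.2) and 28.6 CPM of Adamts2 (next 19.5). Control muscle 1 stood apart for Mmp12 at 7.30 CPM (next 2.7), for Adamts1 at 57.6 CPM (next 46.0) and, as the lowest, for Adamts5 at 16.3 CPM (next 21.6). Control muscle 4 was highest for Timp1 at 6.66 CPM (next 4.47).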

How the results depend on the processing

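The 8 members called higher became 13 with a replicate block, 16 with the DESeq2 Wald test and 13 with limma voom, where the share of all genes called higher rose from 4.43% to 7.48%, 8.37% and 6.41%. All 10 called members were also called by these 3 fits. With no filter Mmp14 and Adamts20 were not, which left 6 called higher, where 2.67% of all genes were. The block added Mmp2, Mmp11, Mmp19, Adam19 and Adamts5 to the members called higher and Adam9 to those called lower. Of all genes 6.62% were called lower with the block, in place of 1.85%. DESeq2 added Mmp2, Mmp11, Mmp13, Mmp19, Mmp23, Adam19, Adamts7 and Adamts14 to the members called higher. It added Adam9 to those called lower, where 6.18% of all genes were. The members called higher also numbered 6 without both muscles numbered 5, a setting added after seeing the data. There 1 member was called lower in place of 2, and of all genes 3.09% were called higher and 2.52% lower. With each muscle left out in turn the numbers ran from 1 to 14 higher and from 0 to 3 lower. The share of all genes ran from 2.01% to 7.87% higher and from 0.32% to 5.65% lower. The replicate numbers do not show shared animals in the labels. Muscles with the same number deviated together with correlations of 0.0547 to 0.282, and 5 of 6 numbers correlated best with their own number. The exception was number 5, which holds the FRAIL1 muscle that stood apart. Whether the numbers mark mice was not settled, and the block was kept as an alternative. The near-zero log2 fold change of Adam10 turned from -0.00075 to 0.0037 with the block, 0.0063 with upper-quartile scaling and 0.0025 with at least 10 counts in every muscle, and ran from -0.062 to 0.035 with a muscle left out. That of Adamtsl4 turned from 0.02 to -0.0046 without both muscles 5 and ran from -0.044 to 0.12 with a muscle left out. The cause was not tested.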
